A study of Mus musculus with 5 samples.

Results

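Histone deacetylase genes of the mouse paraventricular hypothalamus were described across neuron types, glia and treatment groups, namely Hdac1, Hdac2, Hdac3, Hdac4, Hdac5, Hdac6, Hdac7, Hdac8, Hdac9 and Hdac11. They were taken by gene symbol, with no measured value in the choice, and are 10 of the 31054 features counted. Histone deacetylases remove acetyl groups from lysines of histones and other proteins. Class I (Hdac1, Hdac2, Hdac3 and Hdac8) is mainly nuclear, and Hdac1, Hdac2 and Hdac3 act inside corepressor complexes. Class IIa (Hdac4, Hdac5, Hdac7 and Hdac9) has little catalytic activity of its own, binds MEF2 transcription factors and leaves the nucleus when kinases phosphorylate it and 14-3-3 proteins hold it. Hdac6 (class IIb) acts on tubulin in the cytoplasm, and Hdac11 is the sole class IV member. Valproic acid (VPA) inhibits class I enzymes most readily. The values below are RNA levels, which do not measure enzyme activity.

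The study measured nuclear RNA in 5 droplet libraries, each made by pooling 2 to 4 mice, all male and C57BL6 in background. The saline and VPA libraries came from OT-Cre; Rosa26tm9(CAG-tdTomato)Hze mice (the Ai9 reporter), aged 5 weeks, whose dams received saline (10 mL/kg) or sodium valproate (500 mg/kg) on gestation day 12.5. The other 3 libraries came from OT-Cre; Rosa26dreaddm3 mice (stop-hM3), aged 5 to 7 weeks, all exposed to VPA before birth in the same way. These received saline (the hM3 control library) or clozapine N-oxide (CNO libraries 1 and 2) on postnatal day 2. CNO activates the hM3 receptor, which OT-Cre switches on in oxytocin-lineage cells, and the mice also had an AAV injection whose cargo is not given in the sources used here. Nuclei were sorted on DAPI with a gate that favoured larger ones. Each library is its own preparation, and mice within it are not told apart. The tests took out the level of each library. The p-values therefore measure how far differences between classes or types vary from library to library, across treatments and genotypes.

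The deposited libraries held 4440 to 10904 nuclei with a median of 3722.5 to 11913 unique molecular identifiers (UMIs, counted RNA molecules), and 4115 to 9823 nuclei each were kept. Kept nuclei fell into 18754 neuron-like, 4792 astrocyte-like, 2591 oligodendrocyte-like, 715 oligodendrocyte progenitor-like (OPC-like) and 370 microglia-like nuclei, and a vascular-like class of 15 to 151 nuclei per library. The remaining kept nuclei, of rarer, mixed or unnamed clusters, entered no class comparison. CNO library 1, with 15 vascular-like nuclei, was left out of that class. Pairs of libraries shared 4 to 23 cell barcodes. The 8 neuron markers summed to 19788 to 21707 counts scaled to 1e6 UMIs (CPM) in neuron-like sums, 1593 to 2215 in astrocyte-like, 981 to 2157 in oligodendrocyte-like, 3045 to 9000 in OPC-like and 1574 to 4120 in microglia-like sums. RNA of neuron markers was thus counted in every glial class. The 7 OPC markers in turn summed to 3156 to 3729 CPM in neuron-like sums. Whether the marker RNA came from neurons or from the glia themselves was not tested, nor was its part in the glial values below.

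In GRCm38 coordinates of the GENCODE vM21 annotation, the class I genes are Hdac1 at chr4:129516104-129542713, Hdac2 at chr10:36974544-37001889, Hdac3 at chr18:37935844-37955016 and Hdac8 at chrX:102284639-102505359. The class IIa genes are Hdac4 at chr1:91928779-92195699, Hdac5 at chr11:102194432-102230166, Hdac7 at chr15:97792664-97844502 and Hdac9 at chr12:34047580-34917095, and the others are Hdac6 at chrX:7930120-7947889 and Hdac11 at chr6:91156665-91174692. Hdac2 and Hdac11 lie on the plus strand and the other 8 on the minus strand.

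All 10 genes were detected in every library. Over all kept nuclei Hdac9 had 729 CPM and Hdac8 282 CPM, ranks 172 and 556 of the 31053 features other than the Cre transgene, and the other 8 had 28.2 to 122 CPM. Hdac9, Hdac4 and Hdac8 are also the longest genes, at 870, 267 and 221 kb, so levels of different genes were compared per kilobase of the GENCODE vM21 gene body. On that scale the order in neuron-like nuclei was Hdac11 (2.97 CPM per kb), Hdac6 (2.02), Hdac7 (1.92), Hdac3 (1.49), Hdac1 (1.41), Hdac2 (1.32), Hdac8 (0.959), Hdac9 (0.924), Hdac5 (0.792) and Hdac4 (0.449). Neighbours in this order overlapped between libraries, except that Hdac2 lay above Hdac8 and Hdac5 above Hdac4. Per kilobase Hdac9 was thus among the lower members in neurons, while Hdac8 had 6.99 CPM per kb in astrocyte-like nuclei. This scale takes counts to rise in proportion to gene-body length, which was not tested. Whether intronic reads were counted is not given in the sources used here.

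The genes differed in how evenly they were spread over the 6 classes. The highest class mean was 1.32 times the lowest for Hdac3 and 1.33 times for Hdac1, against 7.29 times for Hdac8, 8.15 times for Hdac9 and 11.9 times for Hdac7. The sequences just before 4 starts of 3 genes are shown. They span the range of CG dinucleotides, the site of DNA methylation, among the 8 members used. That range runs from none or few before Hdac9 to most before Hdac2, whose class means differed by 1.97 times. Each is the 250 bases before a RefSeq start on the gene's own strand (table build GRCm38.p6), 5′ to 3′, with every CG in capitals. Hdac8 lies on chrX (minus strand, chrX:102505159-102505408), Hdac9 on chr12 (minus strand, distal start chr12:34917096-34917345 and internal start chr12:34528890-34529139) and Hdac2 on chr10 (plus strand, chr10:36974294-36974543).
Hdac8: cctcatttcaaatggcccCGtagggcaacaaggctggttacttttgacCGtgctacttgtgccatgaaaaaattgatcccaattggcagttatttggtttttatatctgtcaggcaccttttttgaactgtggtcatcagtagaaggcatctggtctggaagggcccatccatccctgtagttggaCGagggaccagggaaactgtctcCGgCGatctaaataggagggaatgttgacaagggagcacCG
Hdac9 distal start: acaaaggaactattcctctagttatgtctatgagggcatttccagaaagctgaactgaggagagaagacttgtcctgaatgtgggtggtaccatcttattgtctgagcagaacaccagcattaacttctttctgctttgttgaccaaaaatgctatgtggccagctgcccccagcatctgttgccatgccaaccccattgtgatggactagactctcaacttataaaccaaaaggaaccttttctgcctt
Hdac9 internal start: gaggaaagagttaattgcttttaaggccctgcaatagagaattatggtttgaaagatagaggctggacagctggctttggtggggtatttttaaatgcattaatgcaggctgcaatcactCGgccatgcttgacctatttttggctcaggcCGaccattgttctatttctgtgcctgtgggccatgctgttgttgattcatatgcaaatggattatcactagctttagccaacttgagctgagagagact
Hdac2: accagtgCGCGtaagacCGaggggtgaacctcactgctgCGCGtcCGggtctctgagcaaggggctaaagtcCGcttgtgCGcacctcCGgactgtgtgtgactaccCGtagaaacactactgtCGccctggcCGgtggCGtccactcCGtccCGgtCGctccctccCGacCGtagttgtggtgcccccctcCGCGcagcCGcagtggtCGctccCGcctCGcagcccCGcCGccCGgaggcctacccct
CG occurred 6 times before Hdac8, 0 and 2 times before the Hdac9 starts and 27 times before Hdac2. Of the other members used, Hdac7 had starts with 25, 21, 6 and 5, Hdac4 had 23, Hdac6 and Hdac11 had 17 each and Hdac5 had 12. Their spreads over classes, in that order, were 11.9, 3.75, 4.05, 2.92 and 2.01 times. No test of CG count against spread was made. Of 32851 windows of this length in the table, 92.1% hold at least 1 CG, and the median is 6. The entries of 8 of the 10 genes were used, 12 starts in all. Hdac1 had no entry and Hdac3 was left out, so neither has a CG count beside its spread over classes. No methylation was measured here, and the counts describe these windows only.

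**Figure D1:**
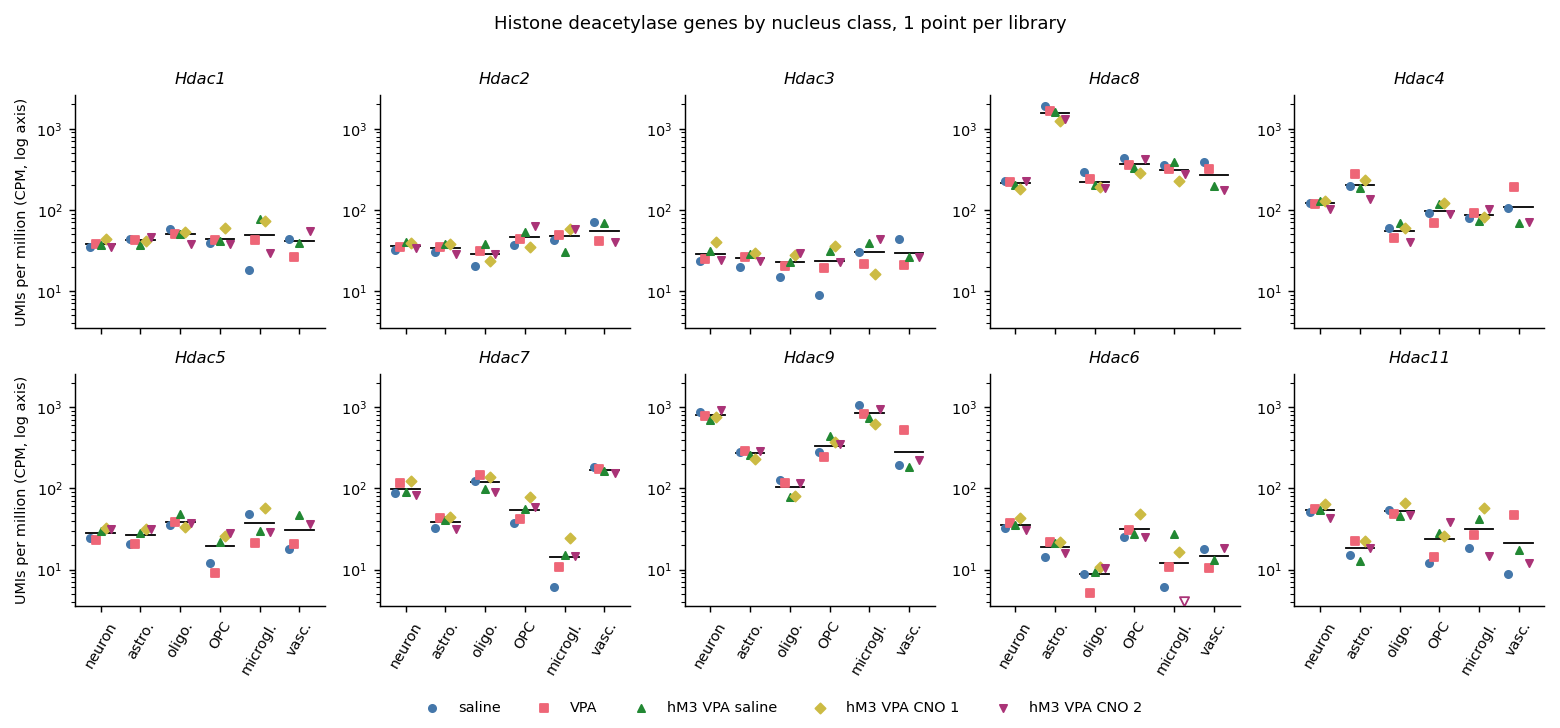
CPM (log axis) of the 10 histone deacetylase genes in 6 nucleus classes, 1 point per library, with bars at the mean. Hdac8 sits between 1231 and 1920.2 CPM in astrocyte-like nuclei, above each of the 5 neuron-like values, and the open triangle marks a library with no Hdac6 UMI in microglia-like nuclei.

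Among class I genes, Hdac8 had by far the most uneven level. Hdac8 deacetylates the cohesin subunit SMC3 among other substrates. In astrocyte-like nuclei it had 1920.2 CPM in the saline library, 1639 in VPA, 1608 in the hM3 control, 1231 in CNO library 1 and 1319 in CNO library 2. In neuron-like nuclei the same libraries had 229, 218, 202, 181 and 228 CPM. The astrocyte-like values lay above the neuron-like values in 5 of 5 libraries and did not overlap them. The difference was 2.77 ± 0.16 (SE) on the log2 scale, with an adjusted p of 2.06e-16 (edgeR's quasi-likelihood test on summed counts, Benjamini-Hochberg adjustment over all genes). OPC-like nuclei had 281 to 430.1 CPM and also stood above neurons, by 0.78 ± 0.15 (adjusted p 9.13e-05, same edgeR test). Oligodendrocyte-like nuclei had 188 to 292 CPM and did not pass the test against neurons.

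An Hdac8 UMI was counted in most astrocyte-like nuclei. The part of RNA from outside the nuclei in these counts was not tested. With each nucleus thinned to 2000 UMIs, 83.9% to 94.8% of astrocyte-like nuclei per library had at least 1 Hdac8 UMI, against 31.6% to 36.5% of neuron-like and 27.0% to 37.6% of oligodendrocyte-like nuclei. Unthinned shares were 85.7% to 98.1% in astrocyte-like nuclei and 68.0% to 87.6% in neuron-like nuclei, whose median UMIs were higher (6189 to 17197, against 1854 to 4386.5). Thinning left out 1482 of the 4792 astrocyte-like and 94 of the 18754 neuron-like nuclei. Both astrocyte-like clusters were high, at 1718 CPM in 2610 nuclei and 1339.9 CPM in 2182 nuclei. The gap from neurons thus appeared in shares of nuclei as well as in summed counts.

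The gene nearest upstream of Hdac8, on the same strand and 8.616 kb away, is Phka1, a subunit of phosphorylase kinase. Phka1 had 594 to 772 CPM in astrocyte-like nuclei and 80.6 to 92.9 in neuron-like nuclei. It was also the gene whose level was most like that of Hdac8 (Pearson r = 0.94 of log2(CPM + 1) over 29 sums of a class and a library, among 10405 genes), and Trp63 was also among the 3 most alike (0.93). The 29 points share libraries and cell classes, so the r values describe these sums only. Reads that run from Phka1 into Hdac8 would be counted for Hdac8, and their part was not tested.

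Hdac1, Hdac2 and Hdac3, the catalytic subunits of the Sin3, NuRD, CoREST and NCoR complexes, had similar ranges in neuron-like and astrocyte-like nuclei. In neuron-like nuclei Hdac1 had 34.3 to 43.7 CPM, Hdac2 32.0 to 40.2 CPM and Hdac3 23.2 to 40.3 CPM. In astrocyte-like nuclei the ranges were 37.0 to 45.7, 28.3 to 38.0 and 19.6 to 29.5 CPM. The ranges overlapped for each gene. Hdac1 and Hdac3 were called in none of the 9 contrasts, where called means an adjusted p under 0.05 and at least 1.5-fold. Hdac2 was called once, lower in oligodendrocyte-like than OPC-like nuclei by 0.64 on the log2 scale (SE 0.17, edgeR's quasi-likelihood test, adjusted p 0.00161), at 20.01 to 37.7 against 34.4 to 63.4 CPM with overlapping ranges. That call was lost when the saline library, the VPA library or either CNO library was left out, with differences of -0.46 to -0.58, and with nuclei of at least 2000 UMIs.

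Class IIa genes went different ways, with Hdac9 mainly in neurons and microglia. Hdac9 is known to repress MEF2 targets and, in muscle and neurons, to respond to electrical activity. In neuron-like nuclei it had 871, 774, 698, 757 and 918 CPM in the 5 libraries, in the order used above. Oligodendrocyte-like nuclei had 125, 118, 78.1, 79.8 and 118 CPM. These ranges did not overlap, and the difference was -2.91 ± 0.21 (SE, log2), with an adjusted p of 1.71e-13 by edgeR's quasi-likelihood test. Astrocyte-like nuclei (231 to 291 CPM) and OPC-like nuclei (247 to 442 CPM) were lower than neurons as well, by 1.66 and 1.198 on the log2 scale (edgeR adjusted p 8.90e-09 and 1.43e-05). Thinned to 2000 UMIs, 53.5% to 64.1% of neuron-like and 12.9% to 22.3% of oligodendrocyte-like nuclei had an Hdac9 UMI.

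Microglia-like nuclei had 1082, 832, 733, 631 and 953 CPM of Hdac9, a range that overlapped the neuronal one, and were above neurons in 4 of 5 libraries by CPM. The fitted difference was -0.49 (edgeR adjusted p 0.0425), under the 1.5-fold minimum, and it turned to 0.06 with library totals in place of TMM (trimmed mean of M-values) scaling. TMM against library totals moved the median of all genes by 0.52 in this contrast, by 0.33 for vascular-like against neuron-like nuclei and by -0.25 for thalamus-type against Sim1-rich neurons, and by under 0.1 elsewhere. The sign of Hdac2, Hdac3 and Hdac5 flipped too in microglia, that of Hdac1, Hdac3, Hdac5 and Hdac8 in vascular-like nuclei, that of Hdac2, Hdac8 and Hdac11 in thalamus-type neurons and that of Hdac3 and Hdac9 in GABAergic-like neurons. None of these was called. Vascular-like nuclei had 195, 526, 181 and 224 CPM of Hdac9 in the 4 libraries used (without CNO 1), lower than neurons by 1.92 (edgeR adjusted p 5.78e-08). The VPA value stood apart, and in that sum the neuron markers totalled 11270 CPM, against 3794 to 5055 in the other 3, and their part was not tested.

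Hdac7 was lowest in microglia-like nuclei, and its highest class mean was that of vascular-like nuclei. Hdac7 is known for its role in endothelial cells and thymocytes. It had 153 to 186 CPM in vascular-like nuclei, 89.8 to 144 in oligodendrocyte-like, 82.1 to 122 in neuron-like, 37.1 to 78.2 in OPC-like, 31.8 to 44.2 in astrocyte-like and 6.08 to 24.6 in microglia-like nuclei. The vascular-like values lay above the neuron-like ones, but the fitted difference of 0.51 (log2, edgeR adjusted p 0.00445) was under 1.5-fold and not called. The microglia-like values were all below the neuron-like ones and rest on 12 UMIs in all. Their difference was -3.36 ± 0.27 (log2, edgeR's quasi-likelihood test, adjusted p 2.45e-12). Astrocyte-like nuclei were lower than neurons by 1.44 and OPC-like nuclei by 0.86 (edgeR adjusted p 5.94e-13 and 3.01e-06). Oligodendrocyte-like nuclei were higher than OPC-like nuclei by 1.18 (edgeR adjusted p 7.90e-09), in 5 of 5 libraries. Slc48a1, which overlaps Hdac7 on the opposite strand, had 94.7 to 122 CPM in oligodendrocyte-like nuclei and 6.46 to 23.7 in OPC-like nuclei. Whether counting used strand is not given in the sources used here, so reads of both genes cannot be told apart in that contrast.

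Hdac4 leaned to astrocytes, and Hdac5 to oligodendrocytes over their progenitors. Hdac4, which holds MEF2 in check in neurons and cartilage, had 199, 273, 188, 231 and 136 CPM in astrocyte-like nuclei against 122, 117, 129, 130 and 103 in neuron-like nuclei. The ranges did not overlap, and the difference was 0.67 ± 0.14 (log2, edgeR's quasi-likelihood test, adjusted p 0.000116). Oligodendrocyte-like nuclei, at 40.7 to 69.5 CPM, were lower than neurons by 1.07 (edgeR adjusted p 7.46e-07), and microglia-like nuclei by 1.11 (edgeR adjusted p 0.000135). The microglia-like CPM of Hdac4, at 72.1 to 103, lay below the neuron-like ones without overlap, but the ratio of mean CPM was -0.49 (log2), under 1.5-fold. Hdac5, a close relative of Hdac4, had 33.8 to 48.3 CPM in oligodendrocyte-like and 9.05 to 27.9 CPM in OPC-like nuclei, without overlap, a difference of 1.07 ± 0.19 (edgeR adjusted p 2.15e-05).

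Hdac6 was highest in neurons and progenitors, and Hdac11 in neurons and oligodendrocytes. Hdac6, the tubulin deacetylase, had 32.1, 37.8, 35.4, 43.3 and 30.9 CPM in neuron-like and 8.70, 5.10, 9.27, 10.9 and 10.4 CPM in oligodendrocyte-like nuclei. OPC-like nuclei, at 25.2 to 48.6 CPM, overlapped neurons. The neuron-like and oligodendrocyte-like ranges did not overlap, with a difference of -1.95 ± 0.17 (log2, edgeR's quasi-likelihood test, adjusted p 1.02e-11). Hdac6 was also lower than in neurons in astrocyte-like nuclei by 0.99, in microglia-like nuclei by 1.70 and in vascular-like nuclei by 1.44 (edgeR adjusted p 3.78e-08, 1.78e-05 and 0.00016). The microglia-like and vascular-like values rest on 14 and 16 UMIs in all. Hdac11, known as a defatty-acylase as well as a deacetylase, had 50.6, 55.6, 53.5, 65.1 and 42.7 CPM in neuron-like and 53.9, 48.4, 45.7, 65.8 and 47.3 CPM in oligodendrocyte-like nuclei. These groups overlapped, with a fitted difference of 0.04 that changed sign with library totals. Astrocyte-like nuclei had 12.8 to 22.7 CPM of Hdac11 and OPC-like nuclei 11.9 to 38.0 CPM, lower than neurons by 1.65 and 1.197 (edgeR adjusted p 8.00e-11 and 1.76e-05). In vascular-like nuclei it was lower by 1.67 (edgeR adjusted p 0.000107), with overlapping ranges and on 20 UMIs in all. Its call in microglia-like nuclei, lower by 1.16 (edgeR adjusted p 0.00125), was lost with library totals (-0.64) and with nuclei of at least 2000 UMIs (-0.67).

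The share of members called was above that of all genes in 3 of the 6 class contrasts and below it in the other 3. In astrocyte-like against neuron-like nuclei 2 of the 10 genes were called higher and 4 lower, and 54.0% of all 13309 tested genes were called, 27.1% higher and 26.9% lower. Against neurons, 3 of 10 were called in oligodendrocyte-like nuclei (55.9% of all genes; 7 of 10 and 67.6% with no fold minimum), 4 in OPC-like (29.7%), 4 in microglia-like (52.8%) and 3 in vascular-like nuclei (50.7%). The contrast of oligodendrocyte-like with OPC-like nuclei had the most members called, 3 higher (Hdac5, Hdac7 and Hdac11) and 5 lower (Hdac2, Hdac4, Hdac6, Hdac8 and Hdac9), where 44.5% of all genes were called, 16.6% higher and 27.9% lower. Of these, Hdac6 differed by -1.78 and Hdac9 by -1.71 (edgeR adjusted p 1.99e-08 and 3.50e-08). The calls of Hdac4 and Hdac8 there (-0.78 and -0.66) fell under 1.5-fold without CNO library 1, to -0.58 and -0.56, that of Hdac8 also without CNO library 2 (-0.45) and with nuclei of at least 2000 UMIs (-0.43), and that of Hdac4 also with doublets kept (-0.57).

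**Figure D2:**
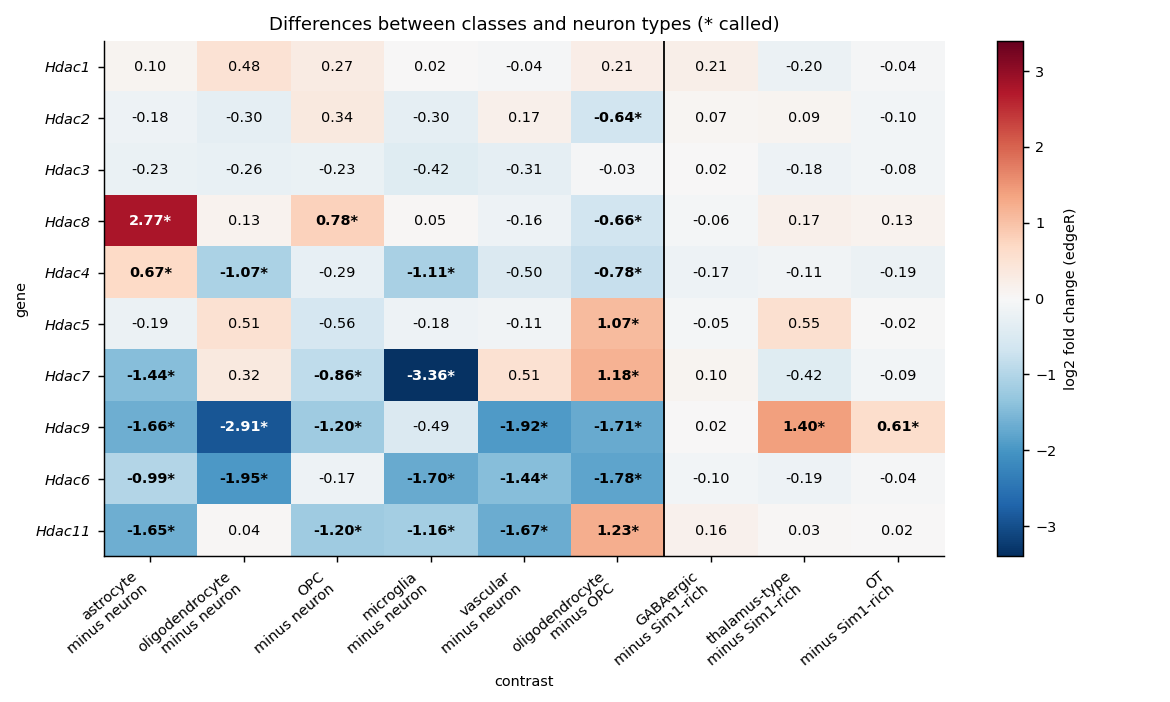
Log2 differences of the 10 genes in 6 contrasts between classes and 3 between neuron types, fitted by edgeR; an asterisk marks a call. Hdac8 at 2.77 in astrocyte-like nuclei and Hdac7 at -3.36 in microglia-like nuclei are the extremes, and in the neuron types Hdac9 alone carries an asterisk.

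Between neuron types, Hdac9 was the only member called in the 3 contrasts fitted. Types were GABAergic-like (8982 nuclei), thalamus-type (2822), Sim1-rich without oxytocin (1624; Sim1 marks the paraventricular lineage) and oxytocin-like (OT-like, 761). Thalamus-type neurons had 1476, 1219, 1205, 1525 and 1266 CPM of Hdac9, OT-like neurons 937, 1019.7, 1014, 742 and 887 CPM, Sim1-rich neurons 526, 619, 698, 633 and 564 CPM and GABAergic-like neurons 705, 688, 555, 506 and 567 CPM. The thalamus-type and OT-like ranges each lay above the Sim1-rich one, while the Sim1-rich and GABAergic-like ranges overlapped. Thalamus-type exceeded Sim1-rich neurons by 1.40 ± 0.11 (log2, edgeR's quasi-likelihood test, adjusted p 9.23e-10), where 21.7% of all 15142 genes were called. OT-like exceeded Sim1-rich neurons by 0.61 ± 0.11 (edgeR adjusted p 0.000344), where 8.64% of genes were called. The OT-like difference fell under 1.5-fold without the saline library (0.54) or without the VPA library (0.58), still with edgeR adjusted p of 0.00393 and 0.00354.

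None of the 10 genes was called between GABAergic-like and Sim1-rich neurons by edgeR or by DESeq2, and 12.7% of all genes were. At an unadjusted p under 0.05 edgeR's test counted 3 of them there (35.8% of all genes), Hdac1 at 0.21, Hdac4 at -0.17 and Hdac11 at 0.16 on the log2 scale. Hdac8 ranges overlapped between types, at 182 to 235 CPM in thalamus-type and 218 to 265 CPM in OT-like neurons. Hdac7 had 48.0 to 74.7 CPM in thalamus-type and 77.2 to 135 CPM in Sim1-rich neurons, without overlap, but its fitted difference of -0.42 was under 1.5-fold (edgeR adjusted p 0.000141). Hdac5, at 28.6 to 43.6 against 21.5 to 36.1 CPM, overlapped and differed by 0.55 there, also under 1.5-fold (edgeR adjusted p 0.000254), and Hdac8 differed by 0.17 (edgeR adjusted p 0.0326). With no fold minimum 4 members and 41.6% of all genes were called in that contrast. With library totals in place of TMM, 2 members and 27.3% of all genes were.

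Hdac9 had the widest span over neuron clusters. Over 51 neuron clusters of at least 100 nuclei, its highest cluster had 16.05 times the level of its lowest, against 5.85 times for Hdac7 and 1.79 to 3.47 times for the other 8. The highest, a GABAergic-like cluster of 267 nuclei led by Nr5a2 and Corin, had 5205 CPM in the saline, 3425 in the VPA, 3449 in the hM3 control, 2772 in the CNO 1 and 3201 in the CNO 2 library. That cluster's type rests on 3 GABAergic markers at or above their mean over clusters, and with doublets kept the cluster of 269 nuclei led by Nr5a2 and Corin had 2 such markers and no named type. A GABAergic-like cluster led by Lhx1os and Eya1 came next, at 2322 to 2699 CPM, and then a thalamus-type cluster led by Lef1 and Prkcd, at 2051 to 2713 CPM in the 3 libraries with at least 10 of its nuclei. The lowest with all libraries together, led by Ebf2 and Ebf1, had 197 to 250 CPM. A GABAergic-like cluster led by Gm38505 and Cdh23 was lower than it in the VPA library (179 against 220 CPM) and in CNO library 1 (192 against 197 CPM). GABAergic-like clusters alone spanned 268 to 3792 CPM, or to 2625 CPM without that cluster, so the type's sum joined clusters near both ends of the order.

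The OT-like neurons held clusters of unequal level too. A cluster of 276 nuclei led by Oxt, Dnah8 and Myocd had 1341, 1530.0, 1281, 1122 and 1262 CPM of Hdac9, and a cluster of 485 nuclei led by Esr2, Oxt and Foxp2 had 794, 712, 764, 412 and 617 CPM. The 2 clusters did not overlap and ranked 7 and 17 of 51. The 6 Sim1-rich clusters spanned 308 to 1349 CPM, which includes both. These clusters were built without the Hdac genes, but from the same nuclei, and the spread between them is a description. Hdac7 ran from 33.9 CPM in the Prkcd-led thalamus-type cluster to 198 CPM in a cluster of 595 nuclei led by Ebf1 and Sim2, where all 5 libraries had 163 to 241 CPM. Hdac5, by contrast, had its highest level, 44.9 CPM, in the Prkcd-led cluster.

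**Figure D3:**
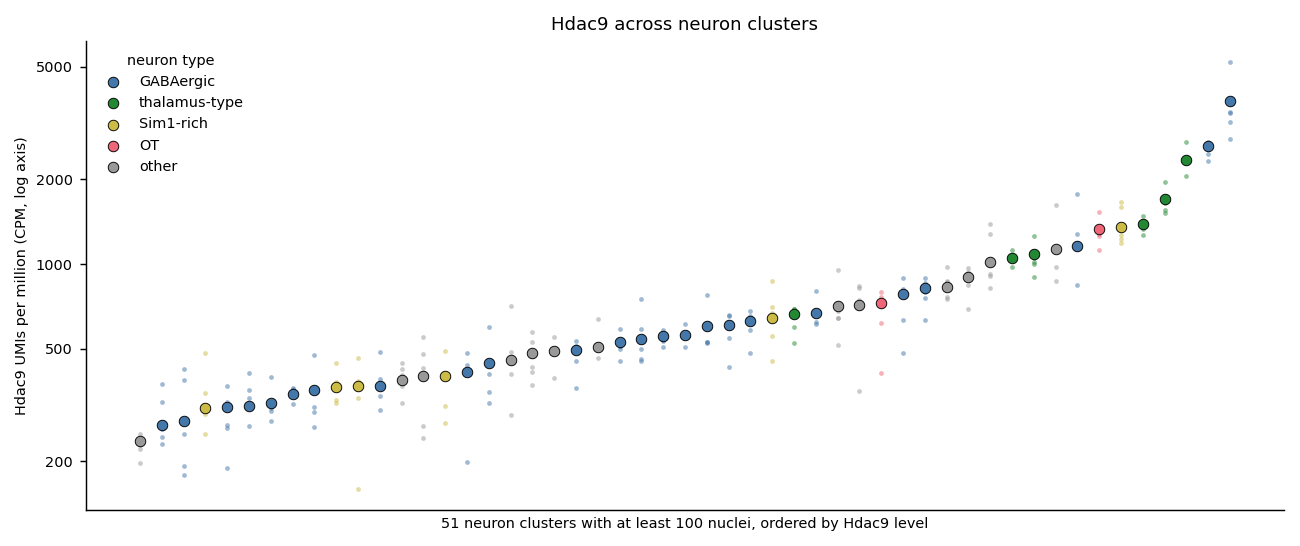
Hdac9 CPM (log axis) in 51 neuron clusters of at least 100 nuclei, in order of level; large points are the cluster and small points its libraries, coloured by neuron type. The clusters run from 236 to 3792 CPM, and GABAergic-like clusters hold the 2 highest places, the first of them the cluster whose type changed with doublets kept, as well as places near the lowest.

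Genes most like the other uneven members over the same 29 sums were Neurl1a, Plxna4 and Atp6v0a1 for Hdac9 (r = 0.95, 0.93 and 0.92), Dennd5b, Lrrc8b and Aplp2 for Hdac7 (0.90, 0.89 and 0.89) and Lrrn2, Gfod2 and Arhgap44 for Hdac6 (0.90, 0.89 and 0.89). These are descriptions over points that share libraries and classes.

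The partners of the deacetylases were read from lists. Of 24 MEF2 factors and kinases and carriers of class IIa deacetylases, 4 were called higher and 11 lower in astrocyte-like than neuron-like nuclei, and 3 higher and 11 lower in oligodendrocyte-like nuclei. The list's medians were -0.19 and -0.47 on the log2 scale, beside 0.0010 and -0.05 over all genes. Camk4, a kinase that drives class IIa proteins out of the nucleus, differed by -4.11 in astrocyte-like nuclei, and Camk2a by -4.37 in oligodendrocyte-like nuclei (edgeR adjusted p 2.20e-18 and 4.37e-15). Prkd3, of the protein kinase D family with the same substrates, was higher there by 5.02 and 7.36 (edgeR adjusted p 5.37e-19 and 6.08e-23). In microglia-like nuclei Mef2c, the partner of class IIa proteins, was higher by 3.10 (edgeR adjusted p 3.36e-14) with 6 of the list called higher and 8 lower. Over all genes 54.0%, 55.9% and 52.8% were called in these 3 contrasts.

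Corepressor partners and acetyltransferases were called at smaller shares than all genes, of which 54.0% were called in astrocyte-like and 55.9% in oligodendrocyte-like nuclei. Of 30 tested corepressor genes, 4 were called higher and 3 lower in astrocyte-like nuclei and 7 higher and 5 lower in oligodendrocyte-like nuclei. Chd5, a neuronal NuRD remodeller, differed by -2.41 and -3.73, and Tbl1xr1, of the NCoR complex, by 1.44 and 1.70 (edgeR adjusted p 1.47e-13, 5.46e-15, 1.96e-12 and 7.92e-14). Of 12 acetyltransferases, 3 were higher and 0 lower in astrocyte-like nuclei and 4 higher and 1 lower in oligodendrocyte-like nuclei, with Kat2b at 0.95 and 2.48 and Kat6a at 1.04 and 1.49 (edgeR adjusted p 9.63e-07, 1.97e-15, 9.48e-10 and 5.08e-13). Among 8 other deacetylases, 1 was called higher and 1 lower in astrocyte-like nuclei and 2 higher and 1 lower in oligodendrocyte-like nuclei. In astrocyte-like nuclei these were Hdac10 at 0.60 and Sirt6 at -0.92 (edgeR adjusted p 0.0301 and 0.000208). In oligodendrocyte-like nuclei Sirt2, the sirtuin of myelin, differed by 2.16 and Sirt5 by -0.74 (edgeR adjusted p 3.37e-16 and 1.41e-05). Of the 3 BET readers, Brd2 was higher in both glial classes, by 0.88 and 0.64 (edgeR adjusted p 1.43e-07 and 0.000157).

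Prenatal VPA was compared with saline in 1 library each, so no test was made. The intervals below are exact and cover counting error only. Kept nuclei had a median of 5247 UMIs in the VPA and 10826 in the saline library. In astrocyte-like nuclei the medians were 1854 and 3522.5. The part of depth in the ratios was not tested. In neuron-like nuclei Hdac7 was the member past 1.2-fold, at 87.7 CPM (4947 UMIs) in the saline and 115 CPM (5964 UMIs) with VPA, a log2 ratio of 0.40 (95% interval 0.34 to 0.45). In this class 34.6% of 17137 genes passed 1.2-fold. Hdac6 was at 32.1 and 37.8 CPM (0.24, 0.14 to 0.33) and Hdac9 at 871 and 774 CPM (-0.17, -0.19 to -0.15), both short of that size. The other 7 members had ratios between -0.08 and 0.14. Hdac7 was higher in the VPA library in 37 of 45 neuron clusters with at least 20 nuclei in both libraries. The other members were higher in 16 to 30 of them. All these clusters come from the same VPA and saline libraries, so they are not replicates. No such tally was made over all genes, whose median ratio in neuron-like nuclei was 0.08. With equal weight for each neuron cluster the Hdac7 ratio was 0.24, short of 1.2-fold, and Hdac6, at 0.35, was the member past it. The hM3 control, which is VPA-exposed too, had 89.5 CPM of Hdac7 in neuron-like nuclei, close to the saline value. CNO libraries 1 and 2, which are of the same group, had 122 and 82.1 CPM, a wider gap than that between saline and VPA.

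In thalamus-type neurons 4 of 10 members were past 1.2-fold, near the share of all genes, 38.6%. Hdac7 had 48.0 CPM in the saline and 74.7 CPM in the VPA library (0.64, 0.47 to 0.81) and Hdac11 39.3 and 49.4 CPM (0.33, 0.13 to 0.53). Hdac9 had 1476 and 1219 CPM (-0.28, -0.31 to -0.24) and Hdac4 115 and 94.5 CPM (-0.29, -0.42 to -0.15). The make-up of the type differed: the Prkcd-led cluster was 5.84% of the type in the saline and 0.278% in the VPA library. With all libraries together it was the type's highest in Hdac9 and lowest in Hdac7. For Hdac7 the next cluster, led by Synpo2 and Tcf7l2, was close (33.9 against 35.2 CPM), and in CNO library 2 their order turned (42.9 against 31.6 CPM). Within the other 5 thalamus-type clusters Hdac7 was higher in the VPA library by 0.21 to 0.54, and Hdac9 ranged from -0.26 to 0.03. GABAergic-like neurons had Hdac6 past 1.2-fold (31.0 and 37.8 CPM; 30.7% of genes), and OT-like neurons Hdac2, Hdac3 and Hdac6 (35.0% of genes). Of those, Hdac6 in OT-like neurons, at 32.7 and 44.8 CPM, had an interval clear of 0 (0.08 to 0.82). Sim1-rich neurons had 0 of 10, with 35.1% of genes past it. With TMM-scaled CPM, Hdac11 in thalamus-type (0.21) and Hdac6 in GABAergic-like neurons (0.24) fell short of 1.2-fold, and with doublets kept Hdac4 in thalamus-type neurons did (-0.21).

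In astrocyte-like nuclei 5 of 10 members were past 1.2-fold, all higher in the VPA library, where 40.5% of genes were past it and 24.8% were higher. Hdac4 had 199 CPM (507 UMIs) in the saline and 273 CPM (612 UMIs) in the VPA library, a ratio of 0.46 (0.28 to 0.63). Hdac3, Hdac6, Hdac7 and Hdac11 were at 0.40 to 0.63, on 36 to 96 UMIs per library, and their intervals reached below 0. The 3 stop-hM3 libraries, all VPA-exposed, had 136 to 231 CPM of Hdac4, a range that holds the saline value. Genotype, virus and age differ between the 2 experiments, and these cannot be told apart from library differences. Oligodendrocyte-like nuclei had 3 of 8 members past 1.2-fold (44.2% of genes), OPC-like 2 of 6 (44.1%), microglia-like 1 of 2 (47.8%) and vascular-like 2 of 3 (70.1%). Hdac8 was lower with VPA in OPC-like nuclei (430.1 and 354 CPM; -0.28, -0.52 to -0.04) and in the oligodendrocyte-like sum (292 and 243 CPM; -0.27, -0.50 to -0.03). With doublets kept both fell short of 1.2-fold, at -0.21 and -0.26, and with nuclei of at least 2000 UMIs the oligodendrocyte-like value was -0.08. The oligodendrocyte-like clusters of these libraries went opposite ways. The cluster led by Prr5l and Sec14l5 had 291 CPM with saline and 195 CPM with VPA, and the cluster led by Mobp and Opalin had 297 and 356 CPM. The second cluster held 30 of the 303 saline and 100 of the 530 VPA nuclei.

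**Figure D4:**
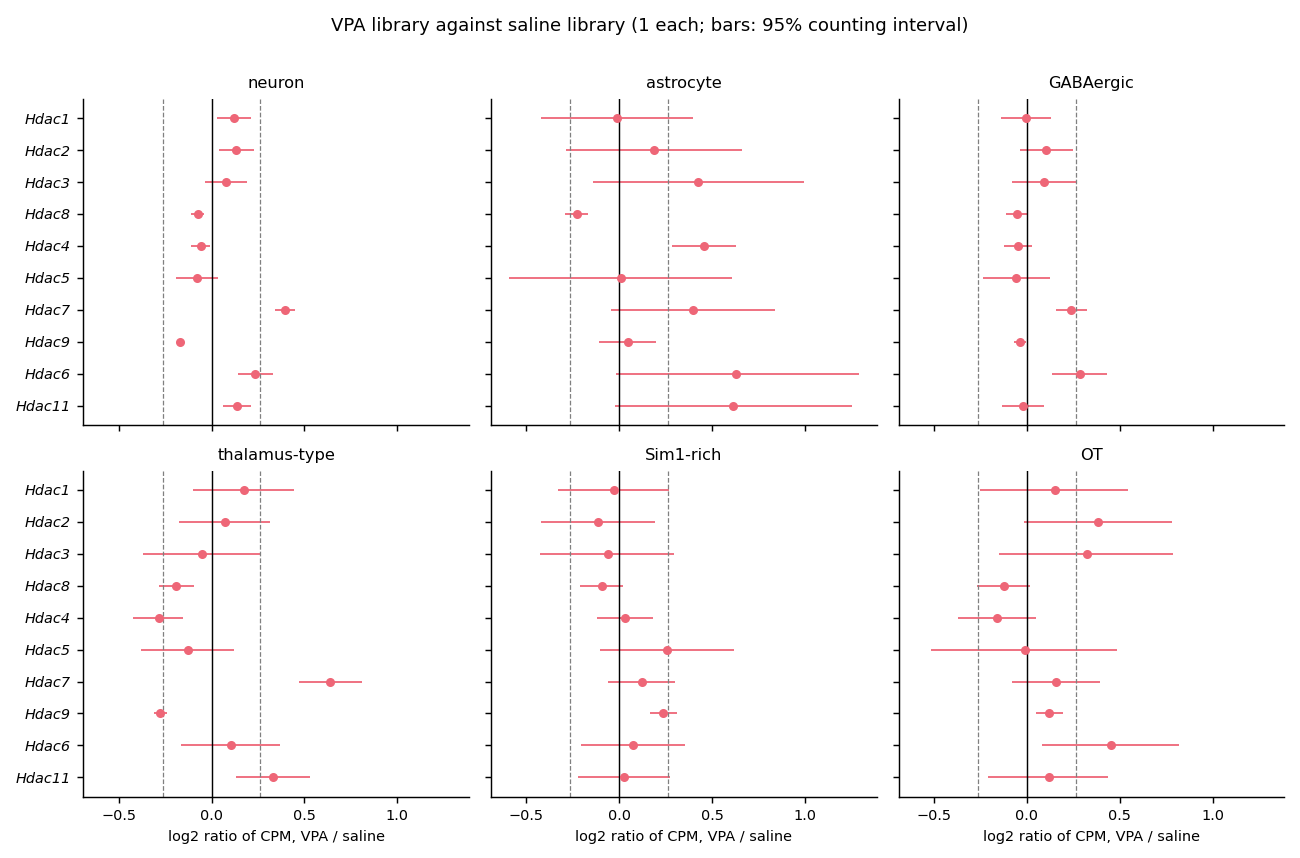
Log2 ratio of CPM in the VPA library to the saline library for the 10 genes in neuron-like and astrocyte-like nuclei and 4 neuron types, with 95% counting intervals and dashed lines at 1.2-fold. Hdac7 lies past the upper line in neuron-like (0.40), astrocyte-like (0.40) and thalamus-type (0.64) nuclei.

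Neonatal CNO was compared with saline in VPA-exposed stop-hM3 mice, with 1 control and 2 CNO libraries; the smallest exact permutation p of such a design is 0.333, and none is given. A member counted where both CNO libraries were at least 1.2-fold from the control on the same side. Kept nuclei had a median of 11072 UMIs in the control, 12059 in CNO library 1 and 4205.5 in CNO library 2. The part of depth in the values below was not tested. In neuron-like nuclei this held for 0 of 10 members, while 16.7% of all genes met it, and 7 of 10 had the CNO libraries on opposite sides of the control. Hdac3 had 31.1 CPM in the control, 40.3 in CNO library 1 and 24.1 in CNO library 2. Hdac7 had 89.5, 122 and 82.1 CPM, and Hdac11 53.5, 65.1 and 42.7 CPM. The libraries of the CNO group thus differed from each other by more than either differed from the control, by -0.74 for Hdac3, -0.57 for Hdac7 and -0.61 for Hdac11 on the log2 scale. Thalamus-type and GABAergic-like neurons had 0 of 10 members as well, with 17.4% and 15.3% of genes.

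In astrocyte-like nuclei Hdac8 was lower and Hdac11 higher in both CNO libraries, where 18.5% of genes met the rule. Hdac8 had 1608 CPM in the control and 1231 and 1319 CPM in the CNO libraries, ratios of -0.39 (-0.46 to -0.32) and -0.29 (-0.34 to -0.23). Most astrocyte-like nuclei of the control came from one cluster (669 nuclei) and most of CNO library 2 from the other (1490 nuclei). Within the first cluster Hdac8 had 1688, 1317 and 1701 CPM in the control, CNO 1 and CNO 2 libraries, and within the second 1479, 1169 and 1293 CPM. The level in CNO library 2 was therefore not lower within the first cluster, where it had 85 nuclei. With nuclei of at least 2000 UMIs Hdac8 no longer met the rule, at a mean ratio of -0.29. Hdac11 had 12.8, 22.7 and 18.5 CPM on 40 to 68 UMIs per library, with ratios of 0.82 (0.21 to 1.42) and 0.53 (0.01 to 1.05).

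Sim1-rich and OT-like neurons had 2 members each past the rule, on few nuclei. In Sim1-rich neurons (194, 65 and 162 nuclei in the control and CNO libraries) Hdac7 had 77.2, 135 and 100.03 CPM, higher by 0.81 (0.49 to 1.12) and 0.37 (0.06 to 0.69), where 15.0% of genes met the rule. Hdac5 had 36.1, 21.5 and 27.5 CPM, ratios of -0.75 (-1.48 to -0.07) and -0.39 (-0.96 to 0.16), so the interval of CNO library 2 held 0. The make-up of the type differed between these libraries. The cluster led by Ebf3 and Gm44593 held 9 of the control, 20 of the CNO 1 and 35 of the CNO 2 nuclei, with 103, 169 and 127 CPM of Hdac7, and the cluster led by Tns1 and Agtr1a, at 74.5 CPM in the control, held 43, 2 and 27. With doublets kept neither gene met the rule in Sim1-rich neurons, and with TMM-scaled CPM Hdac7 did not. In OT-like neurons (126, 37 and 107 nuclei) Hdac1 had 29.5, 47.4 and 46.9 CPM, higher by 0.69 (0.12 to 1.23) and 0.67 (0.17 to 1.16), where 11.9% of genes met the rule. Hdac7 had 74.5, 102 and 93.0 CPM, ratios of 0.45 (0.08 to 0.81) and 0.32 (-0.02 to 0.65), so the second interval held 0. Hdac1 no longer met the rule with doublets kept, nor Hdac7 with TMM-scaled CPM. The saline and VPA libraries of the first experiment had 31.8 and 35.2 CPM of Hdac1 in these neurons. Oligodendrocyte-like nuclei had 3 of 9 members past the rule (21.4% of genes), microglia-like 1 of 2 (37.0%) and OPC-like 0 of 4 (13.7%). Hdac3 was the higher one in oligodendrocyte-like nuclei, at 22.5, 27.9 and 29.3 CPM on 31 to 90 UMIs, and both of its intervals held 0. Hdac5 and Hdac2 were the lower ones, at 48.3, 33.8 and 37.8 CPM and at 37.7, 23.6 and 28.4 CPM, with intervals that held 0 in CNO library 2 for both. With nuclei of at least 2000 UMIs 1 member met the rule there, and Hdac2 was not that member.

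**Figure D5:**
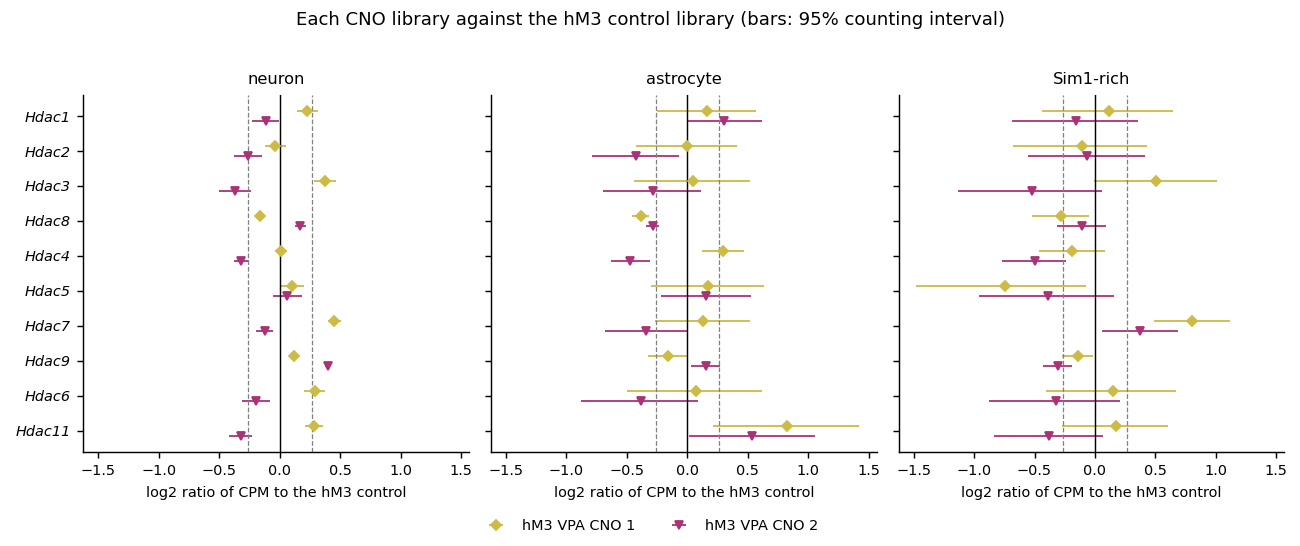
Log2 ratio of CPM in CNO libraries 1 and 2 to the hM3 control library for the 10 genes in neuron-like, astrocyte-like and Sim1-rich nuclei, with 95% counting intervals and dashed lines at 1.2-fold. In neuron-like nuclei 7 of 10 genes have the libraries on opposite sides of 0.

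Of the partner lists, the MEF2 and kinase list had 4 of 24 members higher and 0 lower in the VPA library's neuron-like nuclei, with Prkd1 at 85.8 and 121 CPM (0.49), and 0 of 23 past the rule with CNO, where 34.6% and 16.7% of all genes were. Its median ratio was 0.05 with VPA, beside 0.08 over all genes. Corepressor genes had 5 of 31 higher and 0 lower with VPA, with Mta2 and Sap18 both at 0.45 at low levels (6.29 to 13.3 CPM), and acetyltransferases 0 of 12, all shares below that of all genes. With CNO, Sirt6 of the other deacetylases and Gps2 of the corepressor list were higher in neuron-like nuclei, at 9.06, 15.8 and 14.7 CPM and at 38.1, 47.8 and 65.7 CPM.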

How the data were processed

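The deposited values are raw UMI counts per gene and nucleus in filtered matrices, made with Cell Ranger 7.0.1 on mm10, per the submitters' processing notes. Whether intronic reads were counted and whether counting used strand is not given in the sources used here. Nuclei under 1000 UMIs or over 5% mitochondrial UMIs were dropped, and the highest Scrublet doublet scores (scanpy 1.11.5) were removed at 0.8% per 1000 nuclei. Leiden clusters (leidenalg 0.10.2) were built on 2000 variable genes without the Hdac genes, Oxt and Avp and named from marker lists; 39 clusters of all nuclei and 63 of neurons resulted. The naming thresholds and the doublet rule were settled after clusters had been seen. Counts were summed per library and class and tested with edgeR 4.0.16 (R 4.3.3; quasi-likelihood, TMM, library as a block, Benjamini-Hochberg over all genes), with DESeq2 1.42.0 as an alternative; called means an adjusted p under 0.05 and at least 1.5-fold; scripts were tested on simulated data. For VPA and CNO, CPM and exact 95% counting intervals were given, for genes with at least 50 UMIs. CPM here are summed counts scaled to 1e6 UMIs. The genes and lists were chosen with earlier results of these data known. All 10 genes are named; of each list at most the 2 highest and 2 lowest per contrast (at least 100 UMIs); like genes, of at least 10 CPM, are the 3 with the highest r for members with a class fold of at least 4. Of these like genes 1 is not reported here. UMIs are counted molecules; intervals cover counting error only.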

Additional observations from a re-analysis of the deposited data

How the results depend on the processing

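No paired analysis was possible because the groups compared share fewer than 2 replicate numbers; the library itself was the block in the class and type contrasts. Of the counts of members under an alternative, 167 stayed within 1.5 times of the count reported and 56 did not, and no value changed direction past a call. Among single genes, 482 values kept their call, 14 lost an edgeR call and 45 ratios no longer met the 1.2-fold rule (or the 1.5-fold minimum set in its place); causes were not tested.

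Oligodendrocyte-like against neuron-like nuclei had 3 members called, 7 with no fold minimum (67.6% of all genes) and 5 with nuclei of at least 2000 UMIs (56.8%). Vascular-like against neuron-like nuclei had 3, and 5 with doublets kept (50.2%). Thalamus-type against Sim1-rich neurons had 1, 4 with no fold minimum (41.6%) and 2 with doublets kept (22.3%) or with library totals in place of TMM (27.3%; chosen after seeing the data). Leaving out each library in turn gave 5 to 8 for oligodendrocyte-like against OPC-like, 3 to 5 for oligodendrocyte-like and for vascular-like against neurons, 1 to 2 for thalamus-type and 0 to 1 for OT-like against Sim1-rich neurons, with 41.5% to 44.9%, 55.3% to 56.0%, 37.7% to 50.5%, 20.1% to 22.1% and 7.08% to 9.07% of all genes in these contrasts in turn; the low or high ends came without CNO library 1 (both oligodendrocyte contrasts), without VPA (vascular-like), without VPA or the hM3 control (thalamus-type) and without saline or VPA (OT-like).

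With VPA, a 1.5-fold minimum left 0 members in neuron-like, OPC-like, microglia-like, OT-like and GABAergic-like nuclei, 1 in oligodendrocyte-like, vascular-like and thalamus-type and 2 in astrocyte-like nuclei (7.60% to 41.4% of all genes). Genes of at least 10 UMIs gave 5 in oligodendrocyte-like and OPC-like, 3 in microglia-like and 6 in vascular-like nuclei (58.1% to 74.5%). TMM-scaled CPM gave 1 in vascular-like (68.8%) and 0 in GABAergic-like nuclei (29.6%), and doublets kept gave 2 in microglia-like (47.6%) and Sim1-rich nuclei (33.8%).

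With CNO, a 1.5-fold minimum left 0 in astrocyte-like, oligodendrocyte-like and Sim1-rich and 1 in OT-like nuclei (1.19% to 4.52% of all genes in these 4). It also left 0 in microglia-like nuclei, a class outside that range, whose share of all genes is not given here. Nuclei of at least 2000 UMIs gave 1 in astrocyte-like (17.0%) and oligodendrocyte-like nuclei (19.4%), doublets kept gave 1 in OT-like (12.0%) and 0 in Sim1-rich nuclei (13.4%), and TMM-scaled CPM or genes of at least 10 UMIs gave 1 in OPC-like nuclei (19.9% and 25.9%). With 1 CNO library left out in turn the rule is met more easily, since a lone library need not match another: 4 to 4 members in neuron-like, 3 to 8 in astrocyte-like, 5 to 6 in oligodendrocyte-like, 1 to 3 in OPC-like, 1 to 2 in microglia-like, 3 to 6 in OT-like, 4 to 7 in Sim1-rich, 2 to 2 in thalamus-type and 2 to 4 in GABAergic-like nuclei, where 32.0% to 65.2% of all genes met it. Depth limits the microglia-like, vascular-like and OPC-like ratios, where 2 to 6 members had enough UMIs.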
